A study of Glycine max with 12 samples.

Results

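The genes described here are those whose transcripts were less abundant in old soybean (*Glycine max*) leaves, and more abundant in young ones, when the nutrient solution held 100 rather than 5 µM manganese (Mn). They were chosen on the measured values themselves. For each gene and leaf age a response R was taken as log2((mean FPKM at 100 µM + 1)/(mean FPKM at 5 µM + 1)), where FPKM is the number of sequenced fragments of a gene scaled to its length and to the fragment total of the library. A gene belonged to the group when R was -0.8 or lower in old leaves and 0.8 or higher in young leaves, its highest group mean was at least 5 FPKM, and all 3 young-leaf values at 100 µM lay above all 3 at 5 µM. Of 39811 genes listed, 165 met the rule. The old-leaf limit was met by 1571 genes and the young-leaf limit by 3447, each count including the 195 genes that met both. The abundance limit left 175 genes, and 10 of these overlapped between the Mn levels in young leaves. The mirror image, more transcript at 100 µM in old leaves and less in young ones, held 3 genes with the same abundance limit.

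The series compared old and young leaves of plants moved at the start of the fifth leaf stage to solution with 5 µM Mn, the normal supply, or 100 µM, added as MnSO4, in a randomized block layout. There were 12 libraries of total RNA, 3 in each of the 4 groups: old leaves at 5 µM, old leaves at 100 µM, young leaves at 5 µM and young leaves at 100 µM. No cultivar, genotype or plant age is given in the labels used here, and nothing there says whether a replicate is 1 plant or a pool, so the p-values measure only the spread between these samples, which may be technical. All samples are labelled leaf, while the extraction text speaks of nodules. That label could not be checked against marker genes, because the deposited table holds IDs without names and no ID was found in the RefSeq gene table of assembly Glycine_max_v4.0. For the same reason the genes are given by ID, with no function assigned, and no sequence is shown.

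Mn is a micronutrient of leaves, part of the water-splitting centre of photosynthesis and used as a cofactor by several enzymes. In excess it is toxic to plants, and soybean leaves are known to show brown spots and crinkling under Mn toxicity. Mn moves poorly in the phloem, so old leaves of a plant usually hold more of it than young leaves. The soybean genome has been duplicated more than once, and many of its genes have close copies, so fragments of such copies may have been divided between them in ways that the sources used here do not state.

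Libraries held 17774122 to 21070730 fragments, and replicate 3 of old leaves at 5 µM stood apart, with a library weight in limma of 0.164, the lowest of the 12 (replicate 1 of that group had the highest, 2.103). All 165 genes passed the expression filter used for tests (FPKM of at least 1 in at least 3 libraries), as did 28267 genes in all. The genes were represented by up to 16981 fragments in a library. In 21 of them at least 1 library had fewer than 10 fragments, and 2 values were 0. In bulk tissue, fewer cells of a type and less RNA per cell cannot be told apart.

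The 165 genes were of moderate abundance. Their highest group mean was 5 to under 20 FPKM in 69 genes, 20 to under 100 in 74 and 100 or more in 22. The median group mean over the genes was 21.1 FPKM in old leaves at 5 µM, 9.53 in old leaves at 100 µM, 5.23 in young leaves at 5 µM and 16.6 in young leaves at 100 µM. The median R, which the rule fixed in sign, was -1.08 in old leaves (range -3.23 to -0.80) and 1.47 in young leaves (range 0.82 to 4.14). Over all genes tested the medians were 0.075 and 0.27. Young-leaf responses were the wider of the pair: R was at least 2 in 39 genes and at least 3 in 11, whereas R in old leaves was -2 or lower in 10 genes and -3 or lower in 1. This comparison depends on scaling: after median-of-ratios rescaling of the FPKM the medians, 1.20 in young and -1.15 in old leaves, were closer in size.

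**Figure D1:**
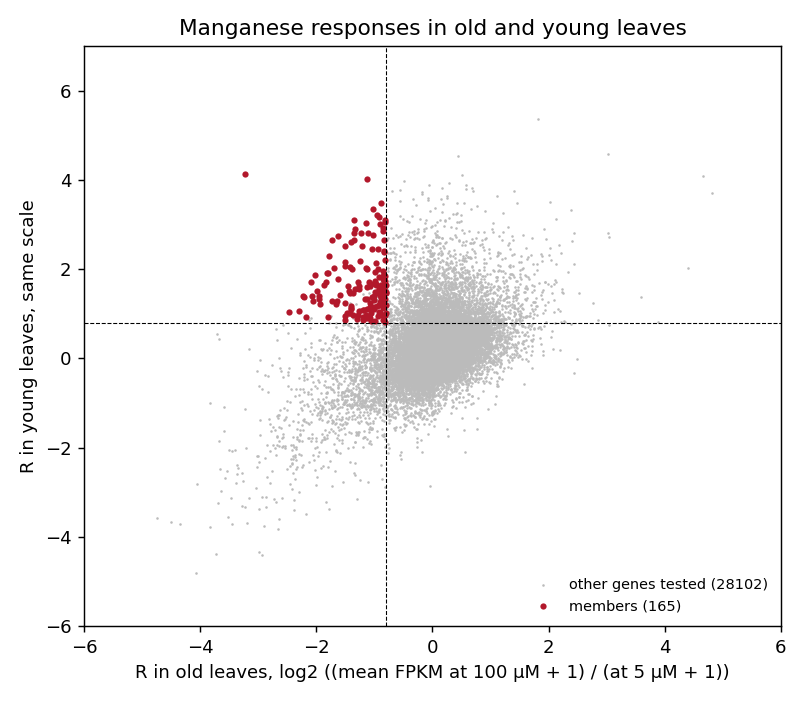
Response to Mn in old leaves (horizontal axis) and young leaves (vertical axis), each as R on the log2 scale, for the 165 genes of the group (red) and the other genes tested (grey). Dashed lines mark the limits of -0.8 and 0.8; the red points fill the upper left corner by construction, and most lie close to the old-leaf limit, with a median R of -1.08 there.

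At the old-leaf limit, the nearest genes inside had R of -0.803 and -0.8045 and the nearest outside -0.7997 and -0.7963. At the young-leaf limit the values were 0.8216 and 0.8387 inside and 0.7956 for both genes outside. The lowest highest group means inside were 5.09 and 5.10 FPKM, and the next below the limit were 4.87 and 4.67. The group therefore has no gap at its edges.

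In terms of level, the most frequent order was a maximum in old leaves at 5 µM and a minimum in young leaves at 5 µM, which held for 100 of the 165 genes. In 34 genes the maximum was in young leaves at 100 µM and the minimum in old leaves at 100 µM, in 28 the maximum was in young leaves at 100 µM and the minimum in young leaves at 5 µM, and in 3 the maximum was in old leaves at 5 µM and the minimum in old leaves at 100 µM. Old leaves held the higher mean at 5 µM in 155 genes, and young leaves held the higher mean at 100 µM in 145. Both statements were true of 135 genes, so that the leaf age with more transcript changed with the Mn supply. A further 20 genes were higher in old leaves at both levels and 10 were higher in young leaves at both. The rule moves the leaf age difference towards such a crossing, so these counts describe the group and test nothing. Old leaves at 5 µM and young leaves at 100 µM lay within 2-fold of each other, on the FPKM + 1 scale, in 105 genes, and the lower groups, old leaves at 100 µM and young leaves at 5 µM, did so in 97.

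The gene with the largest response in both leaf ages was Glyma.02G083700.Wm82.a2.v1. In old leaves it had 95.3, 24.97 and 173.8 FPKM in replicates 1, 2 and 3 at 5 µM and 5.96, 11.7 and 10.9 at 100 µM. In young leaves it had 0.153, 1.32 and 0.661 at 5 µM and 20.6, 24.2 and 42.8 at 100 µM. The Mn levels did not overlap in either leaf age, although the 3 old-leaf values at 5 µM differed widely among themselves. Group means were 98.0 ± 74.5 and 9.53 ± 3.11 FPKM in old leaves and 0.713 ± 0.588 and 29.2 ± 11.9 in young leaves (SD, n = 3), giving R of -3.23 and 4.14. Without replicate 3 of old leaves at 5 µM, R in old leaves was -2.54. The recovered gene length was 359 bases, and the library with the fewest fragments of this gene held 1. R in young leaves therefore depended on the 1 added to each mean: it was 5.17 with 0.1 added and 2.58 with 5 added.

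Next by the smaller of the 2 responses was Glyma.02G094500.Wm82.a2.v1, on the same chromosome. Its old-leaf values were 13.9, 7.03 and 29.997 FPKM at 5 µM and 4.01, 3.39 and 2.88 at 100 µM. Its young-leaf values were 2.11, 5.09 and 1.602 at 5 µM and 8.61, 15.7 and 15.7 at 100 µM. Again neither leaf age overlapped between Mn levels, and R was -2.02 in old and 1.87 in young leaves. R in old leaves was -1.37 without replicate 3 at 5 µM.

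The 2 genes most abundant over the 12 libraries behaved differently in old leaves. Glyma.05G204600.Wm82.a2.v1 had 118, 45.1 and 369.9 FPKM in old leaves at 5 µM, against 91.6, 74.5 and 134 at 100 µM. Replicate 2 at 5 µM was the lowest of the 6 old-leaf values and replicate 3 the highest, so the groups overlapped. In young leaves the gene had 50.5, 106 and 43.3 FPKM at 5 µM and 739, 360.2 and 594 at 100 µM, with no overlap. R was -0.82 in old leaves with all libraries and 0.295 (higher at 100 µM) without replicate 3 at 5 µM.

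Glyma.01G127200.Wm82.a2.v1 showed the same dependence. It had 168, 142 and 634 FPKM in old leaves at 5 µM and 169, 184 and 171 at 100 µM, so that only replicate 3 at 5 µM lay above the 100 µM values. Its R in old leaves was -0.85 with replicate 3 and 0.17 without it. In young leaves it had 21.1, 73.3 and 32.5 FPKM at 5 µM and 212, 365 and 397 at 100 µM, again with no overlap, and R was 2.91.

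Over the whole group, replicate 3 of old leaves at 5 µM carried a large share of the old-leaf difference. Median FPKM over the 165 genes was 12.8, 18.7 and 31.1 in replicates 1, 2 and 3 at 5 µM and 10.04, 7.58 and 8.40 in replicates 1, 2 and 3 at 100 µM. All 3 libraries at 5 µM thus had a higher median than any at 100 µM, with replicate 1 nearest to them. Replicate 3 held a median of 51.6% of the summed FPKM of its group (range 7.58 to 88.0%), against 37.9% over all genes tested. In 86 genes it exceeded the other two libraries together.

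When R was computed from replicate 3 alone against the 3 libraries at 100 µM, its median was -1.65, with 159 genes at -0.8 or lower and 1 above 0. From replicate 2 alone the median was -0.97, with 92 genes at -0.8 or lower and 26 above 0. From replicate 1 alone it was -0.38, with 30 genes at -0.8 or lower and 32 above 0. A lower level at 100 µM was therefore measured for most of the genes against each single library, but it met the limit in few genes against replicate 1.

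Without replicate 3 at 5 µM, the median R in old leaves was -0.73, while that over all genes tested was 0.17. Then 74 genes remained at -0.8 or lower, 74 lay between -0.8 and 0, and 17 were above 0. The 17 genes had 64.2% or more of their summed FPKM at 5 µM in replicate 3, and their median R in young leaves was 2.52. Leaving out replicate 1 or replicate 2 in its place left 164 and 136 genes at -0.8 or lower, with none above 0 in either case. Applied anew without replicate 3, the whole rule found 76 genes, 73 of them among the 165.

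**Figure D2:**
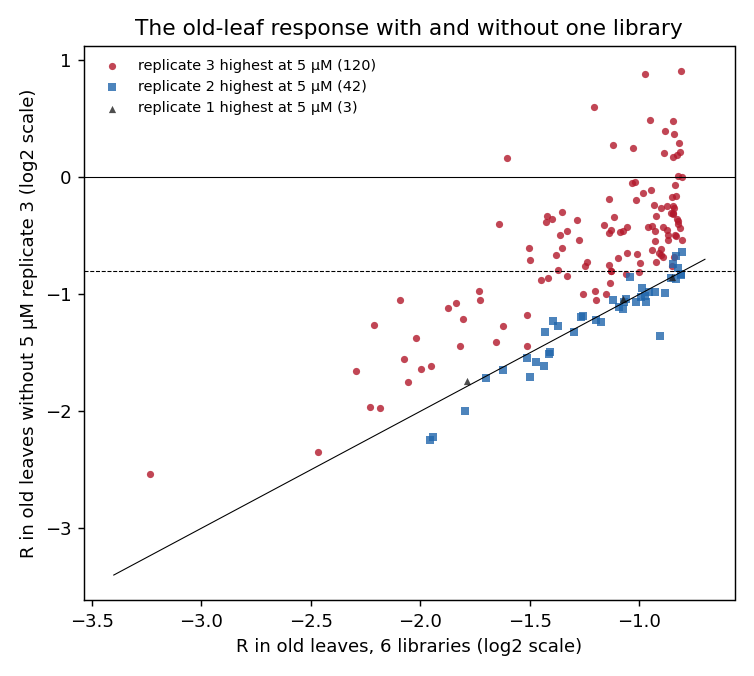
R in old leaves from all 6 old-leaf libraries (horizontal axis) and without replicate 3 at 5 µM (vertical axis), both on the log2 scale, for the 165 genes, with colour and shape giving the highest library at 5 µM. Points above the diagonal lost part of the difference without that library; 17 lie above 0, all of them genes with replicate 3 highest, and 74 lie at or below the dashed line at -0.8.

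The Mn levels did not overlap in old leaves in 62 of the 165 genes (37.6%), where all 3 values at 5 µM lay above all 3 at 100 µM. The same was seen in 9.06% of all genes tested, but the rule used this contrast and the difference between the shares is no result. With 1 value fewer to compare, the count was 117, 83 and 63 without replicates 1, 2 and 3 at 5 µM. It was 111, 69 and 70 without replicates 1, 2 and 3 at 100 µM, and 90 with all libraries after median-of-ratios rescaling. The share over all genes was not computed for these settings, so the counts are descriptions. In 39 of the 62 genes R stayed at -0.8 or lower without replicate 3 at 5 µM. These 39 had a median R of -1.62 in old and 1.39 in young leaves, and 25 of them were highest in replicate 3, 12 in replicate 2 and 2 in replicate 1. Across the group, 51 genes stayed at -0.8 or lower when each of the 6 old-leaf libraries was left out in turn.

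After Glyma.02G083700.Wm82.a2.v1, the lowest R among the 39 was that of Glyma.07G139800.Wm82.a2.v1. It had 18.3, 30.7 and 31.1 FPKM in old leaves at 5 µM and 3.39, 4.10 and 4.51 at 100 µM. Replicates within each Mn level lay close together compared with the gap between the levels, and R was -2.47 with all libraries and -2.35 without replicate 3 at 5 µM. In young leaves it had 9.24, 12.2 and 5.23 FPKM at 5 µM and 13.96, 16.9 and 26.9 at 100 µM, and R was 1.03.

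In the model fitted across all genes (limma with Benjamini-Hochberg adjustment), 42 of the 165 genes were called lower at 100 µM in old leaves, where 5.31% of all genes were. In young leaves 124 were called higher, against 29.6% of all genes, and 115 were called for the difference between the responses in the positive direction, against 3.75%. These contrasts chose the genes, so the counts are descriptions. After median-of-ratios rescaling, 62 of the 165 were called lower in old leaves and 88 higher in young leaves. All genes called after that rescaling were 2190 and 3362, in place of 1502 and 8379. The 42 calls in old leaves were 33 without replicate 3 at 5 µM, 88 without replicate 1 at 5 µM, and 15 and 18 without replicates 2 and 3 at 100 µM. All genes called in those fits were 1583, 1964, 866 and 825 in the same order, against 1502 with every library. The 124 calls in young leaves were 70 without replicate 3 at 5 µM and 79 without replicate 3 at 100 µM. All genes called were then 4217 and 4914, against 8379 with every library.

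Replicate 3 was the highest of old leaves at 5 µM in 120 of the 165 genes (60.1% of all genes tested), and replicate 1 was the highest of old leaves at 100 µM in 102 (34.2% of all). In young leaves, replicate 2 was the highest at 5 µM in 140 genes (45.0% of all) and replicate 3 was the highest at 100 µM in 143 (32.0% of all). Each of these 4 libraries was the highest of its group in 55 of the 165 genes, and in 4.89% of all genes tested. A rule on group means takes up genes that are raised in single libraries of a high group, so the shares of the high groups are not independent of the choice. The values of the low groups, old leaves at 100 µM and young leaves at 5 µM, also entered the rule, so their shares are descriptions too.

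The size of these differences was moderate except in old leaves at 5 µM. On the FPKM + 1 scale, replicate 3 of that group was a median of 1.93-fold above the mean of the other two, against 1.17-fold over the 18544 tested genes with a highest group mean of at least 5 FPKM. Replicate 1 of old leaves at 100 µM was 1.23-fold above the others of its group (0.991-fold over those genes). In young leaves, replicate 2 at 5 µM was 1.45-fold above (1.04-fold over those genes), and replicate 3 at 100 µM was 1.52-fold above (0.993-fold). The median SD between replicates, on the log2(FPKM + 1) scale, was 0.85 in old leaves at 5 µM, 0.36 in old leaves at 100 µM, 0.39 in young leaves at 5 µM and 0.42 in young leaves at 100 µM. Over the 18544 genes it was 0.29, 0.14, 0.14 and 0.13 in the same order, so the median was higher for the 165 genes in all 4 groups.

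**Figure D3:**
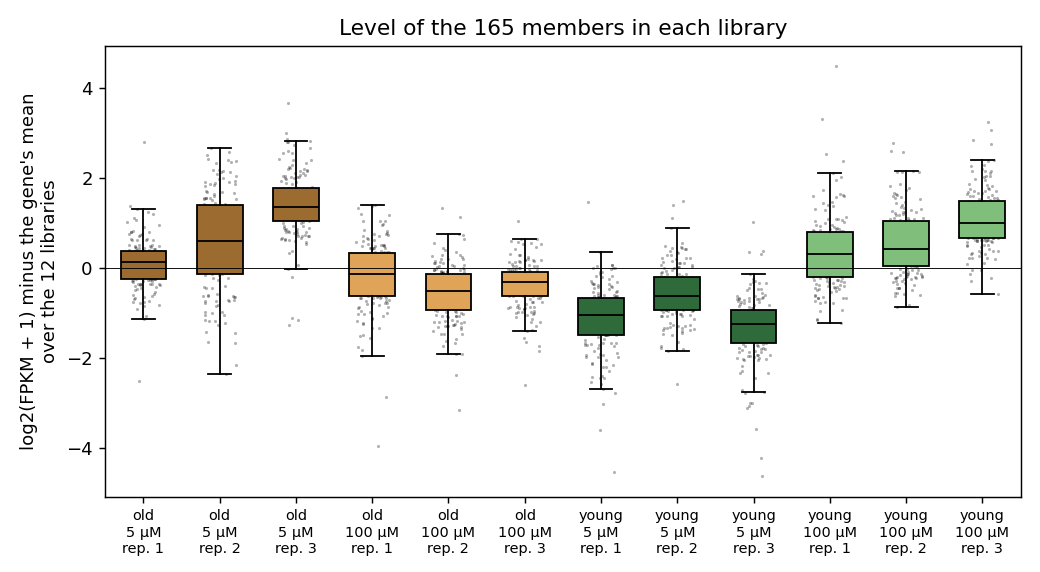
Level of the 165 genes in each of the 12 libraries, as log2(FPKM + 1) minus the mean of that gene over the 12 libraries; boxes give the median and quartiles, whiskers the range within 1.5 times the quartile distance, and points single genes. Replicate 3 of old leaves at 5 µM is the highest box and the spread of replicate 2 in that group is wide; in young leaves the 100 µM libraries lie above the 5 µM libraries, with replicate 3 the highest at 100 µM and replicate 2 at 5 µM.

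The old-leaf libraries at 5 µM divided the genes by which replicate was highest: replicate 3 in 120, replicate 2 in 42 and replicate 1 in 3. The 42 genes with replicate 2 highest had a median R of -1.08 in old and 1.21 in young leaves, and the 120 with replicate 3 highest had -1.07 and 1.605. Of the 42, 38 stayed at -0.8 or lower without replicate 3 and 16 without replicate 2. Of the 120, 33 stayed at -0.8 or lower without replicate 3. The genes were divided by their highest library, so a weaker old-leaf difference without that library was built in. These counts are descriptions.

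The same 2 sets of genes are given here in the libraries that had no part in dividing them, as a description. Replicate 1 was the highest of old leaves at 100 µM in 36 of the 42 genes and in 66 of the 120, and its median excess over the other two was 0.66 and 0.25 on the log2 scale. In young leaves at 100 µM, replicate 3 was the highest in 40 of the 42 and 102 of the 120, with a median excess of 0.87 and 0.55. In young leaves at 5 µM the order was reversed: replicate 2 was the highest in 29 of the 42 and 109 of the 120, with a median excess of 0.35 and 0.67.

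As correlations across the 165 genes, the difference between replicates 2 and 3 of old leaves at 5 µM went with the excess of replicate 1 of old leaves at 100 µM (r = 0.54), with the excess of replicate 3 of young leaves at 100 µM (r = 0.38) and, inversely, with that of replicate 2 of young leaves at 5 µM (r = -0.39). Over the 18544 genes the values were 0.08, 0.07 and -0.33. The points share the same libraries and genes are not independent replicates, so these are descriptions. Over the 12 libraries, single genes correlated with the group's mean profile at a median r of 0.83 (range 0.11 to 0.98). Because the rule fixed the direction of both Mn responses, a high correlation with this profile is partly built in, and it is no sign that the genes belong together.

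**Figure D4:**
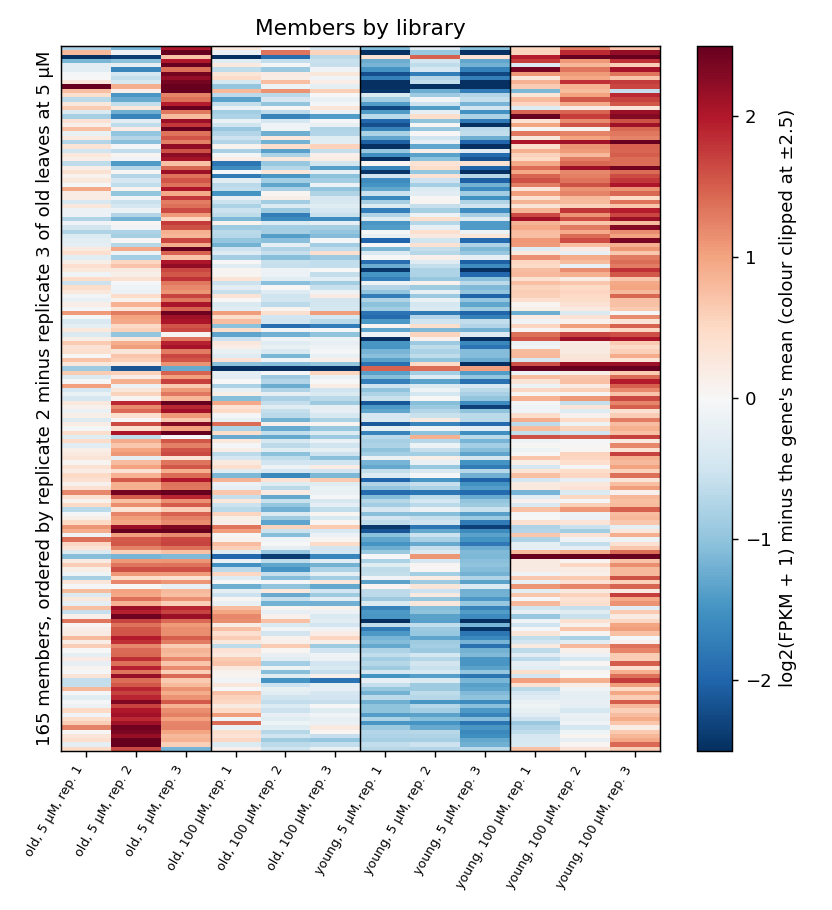
The 165 genes (rows) in the 12 libraries (columns), coloured by log2(FPKM + 1) minus the mean of that gene (the darkest colours are clipped), with rows ordered by the difference between replicates 2 and 3 of old leaves at 5 µM. Rows at the top are high in replicate 3 of old leaves at 5 µM and mostly near or below their own mean in replicates 1 and 2; rows at the bottom, among the 42 genes with replicate 2 highest, are high in replicate 2.

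The leaf age difference averaged over both Mn levels (young minus old, on the log2(FPKM + 1) scale) is the one contrast of the design that is orthogonal to both Mn responses, and it was tested. Of the 165 genes, 77 differed between leaf ages in limma at an adjusted p below 0.05 (46.7%), against 54.7% of all genes tested. Higher in young leaves were 23 (13.9%, with 24% of all genes), and lower were 54 (32.7%, with 30.7% of all genes). The median difference was -0.49 over the 165 genes (range -2.71 to 4.67) and -0.08 over all genes, with 114 genes below 0 and 51 above. The share of genes lower in young leaves was thus close to that of all genes. Without replicate 3 of old leaves at 5 µM the counts were 36 higher and 48 lower, 84 in all. All genes called were then 16526, against 15453 with every library, and their split by direction in that fit is not given here. The count of genes higher in young leaves thus depended on that library. The contrast is free of the rule only where groups vary alike. Old leaves at 5 µM varied most (median SD 0.85), which can tilt the chosen genes towards lower values in young leaves, and its part in these counts was not tested.

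**Figure D5:**
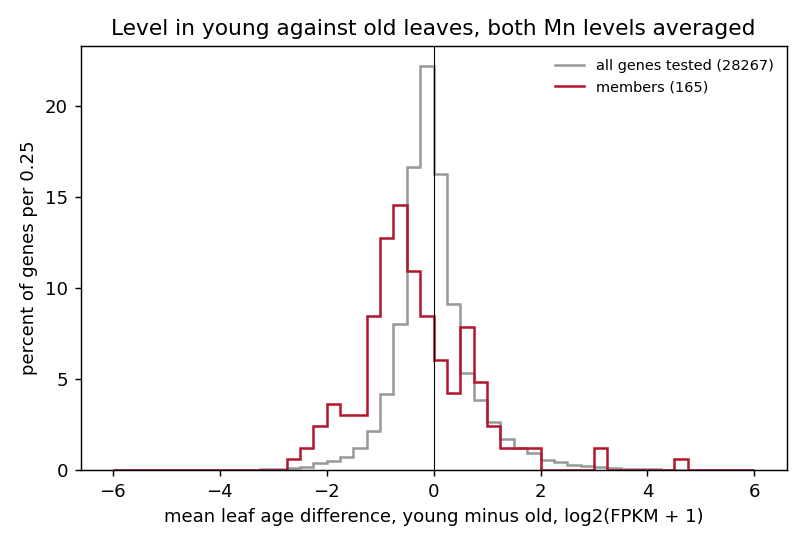
Distribution of the mean leaf age difference (young minus old, both Mn levels averaged, log2 scale) as the percent of genes per bin of 0.25, for the 165 genes (red) and all 28267 genes tested (grey). The red curve is wider and its median, -0.49, lies to the left of that of all genes, -0.08, with a few genes far to the right, up to 4.67.

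The largest differences towards old leaves were those of 2 genes on chromosome 17. Glyma.17G258400.Wm82.a2.v1 had 29.0, 60.4 and 69.2 FPKM in old leaves at 5 µM and 34.1, 19.5 and 20.8 at 100 µM. In young leaves it had 1.63, 2.91 and 1.77 at 5 µM and 7.12, 8.52 and 10.9 at 100 µM. Every old-leaf value lay above every young-leaf value, and the gene was lower in young leaves by a log2 difference of -2.71 (SE 0.22, limma adjusted p = 1.64e-06).

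Glyma.17G039000.Wm82.a2.v1 had 64.0, 74.3 and 167 FPKM in old leaves at 5 µM and 63.8, 40.4 and 63.3 at 100 µM, and 7.69, 8.16 and 6.78 in young leaves at 5 µM and 12.3, 23.2 and 29.4 at 100 µM. Old leaves were again above young leaves in every library, with a log2 difference of -2.42 (SE 0.26, limma adjusted p = 1.25e-05).

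In the other direction, Glyma.14G085600.Wm82.a2.v1 had 10.4, 3.82 and 7.89 FPKM in old leaves at 5 µM and 0.377, 1.39 and 2.502 at 100 µM. Its young-leaf values were 58.2, 55.1 and 42.3 at 5 µM and 473, 127 and 177 at 100 µM. The 4 groups did not overlap with each other, and the leaf age difference was 4.67 (SE 0.34, limma adjusted p = 5.88e-07), the highest among the 165. This was one of the 3 genes with replicate 1 highest in old leaves at 5 µM, and its R in old leaves was -1.74 without replicate 3.

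Glyma.02G054200.Wm82.a2.v1 had 2.38, 2.80 and 30.8 FPKM in old leaves at 5 µM, 1.67, 4.13 and 11.1 at 100 µM, and 23.9, 53.0 and 23.6 in young leaves at 5 µM and 74.3, 114 and 138 at 100 µM. It was higher in young leaves by 3.195 (SE 0.55, limma adjusted p = 0.000492). In old leaves its R of -0.97 rested on replicate 3 at 5 µM, and it was 0.89, higher at 100 µM, without that library.

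The IDs give the chromosome and the order of genes along it. The genes lay on all 20 chromosomes, with 1 more on an unplaced scaffold. Their share of listed genes ran from 0.214% on chromosome 4 (4 of 1866 genes) to 0.654% on chromosome 7 (13 of 1988), and chromosome 13 held the most, 16 of 2780 genes. In 33 of the 164 placed genes another gene of the group lay within 10 listed genes, forming 14 runs, and 17 lay directly beside another gene of the group, on either side, in the order of listed genes. No background was computed for these counts, so they do not say whether the genes lie closer together than other genes do. The median gene length recovered from the FPKM values was 1612 bases (range 359 to 5304), against 1821 over the 18544 genes with a highest group mean of at least 5 FPKM.

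The longest run, on chromosome 7 from Glyma.07G139700.Wm82.a2.v1 to Glyma.07G140700.Wm82.a2.v1, was singled out after its values were seen. It spans 8 listed genes, 5 of them in the group, Glyma.07G139800.Wm82.a2.v1 included. The 5 differed widely in level, with mean FPKM in old leaves at 5 µM of 8.56, 26.7, 20.5, 350.5 and 43.2 in the order of their IDs, and 3.47, 4, 9.96, 175.7 and 23.8 at 100 µM. In young leaves the means were 4.83, 8.91, 3.99, 112.5 and 2.61 at 5 µM and 18.0, 19.3, 21.0, 202.0 and 18.3 at 100 µM. The first gene of the run and the last thus had similar means in young leaves at 100 µM, while the last was higher in old leaves at both Mn levels. The 3 genes between them that were outside the group had at most 5.67 FPKM in any group mean, and R of -0.28, 0.06 and -0.14 in old leaves and 1.59, 1.00 and -0.55 in young leaves. Whether the 5 genes are near-identical copies that share fragments was not tested, as no sequence was used here.

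Scaling acted more on the young-leaf than on the old-leaf response. Rescaling the FPKM by median-of-ratios factors moved the median R of all genes tested by -0.28 in young leaves and by -0.08 in old leaves. The median R of the 165 genes was then 1.20 in young and -1.15 in old leaves. The genes had been chosen for both directions, so the signs of these medians support nothing. Applied to the rescaled values, the rule found 133 genes, 115 of them among the 165.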

How the data were processed

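Total RNA of old and young soybean leaves at 5 and 100 µM Mn was sequenced in 12 libraries. The authors deposited FPKM per gene and library; HISAT2 2.1.0, DESeq2 1.6.3 and Bowtie2 2.2.3 appear in the tools listed per the submitters' processing notes, which state no roles. The counting rule is not given in the sources used here. Whole fragments, library totals and gene lengths were recovered from the FPKM, within 0.02 of a whole number for all 39811 genes. The model took log2(FPKM + 1), which understates changes of low genes, in limma 3.58.1 (R 4.3.3) with 4 group means, trended moderated variances and 2-sided tests, Benjamini-Hochberg adjusted over 28267 genes; the model was tested on simulated data. R and the other values were computed in Python 3.11.15.

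The genes and lists were chosen with earlier results of these data known. Lists by gene description, cell type markers, promoter motifs and protein copies could not be applied, since 0 RefSeq entries matched an ID. Named were, with at most 2 IDs for each part and direction, the genes with the largest smaller response, the highest mean FPKM, the lowest R among those not overlapping in old leaves and at -0.8 or lower without replicate 3 at 5 µM, and the extremes of the leaf age difference.

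Alternatives were other pseudocounts, filters, scaling, thresholds, library weights, a replicate term, group medians and leaving out each library; voom on recovered fragments, group medians in the rule, and all alternatives for the Mn responses were added after seeing the data.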

Additional observations from a re-analysis of the deposited data

Results flagged for a closer look

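Both of the following counts over the 165 genes concern a Mn response that differs between leaf ages. The interaction term of limma called 115 of them, and in 62 all values at 5 µM lay above all values at 100 µM in old leaves and below them in young leaves, a difference that was not tested gene by gene in that form. The rule selected genes for this difference, so neither count supports it. Outliers were not looked for by a test, since groups hold 3 libraries.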

How the results depend on the processing

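The count of 165 genes depended on the rule's own settings and on single libraries of old leaves at 5 µM. It was 68 with a pseudocount of 5, 294 and 81 with thresholds of 0.6 and 1, and 76 to 264 when single libraries were left out, the lowest without replicate 3 and the highest without replicate 1 of old leaves at 5 µM. The median R of these genes was -1.35 to -0.73 in old and 1.23 to 1.65 in young leaves over the libraries left out, and 1.02 in young leaves with a pseudocount of 5. No alternative reversed either median, but the rule had chosen the genes for these directions. The 77 genes called for leaf age were 49 when a difference of at least 1 was also required and 61 to 94 when libraries were left out; the all-gene count of 15453 was then 4049 and 13501 to 16526, and 8590 among genes averaging 5 FPKM or more. Library weights called 38 genes higher in young leaves, in place of 23, and 83 of the 165 in either direction. All genes called in either direction were then 17538, and their split in that fit is not given here. All genes called lower at 100 µM in old leaves, 1502, were 830 with a difference of at least 1 and 825 to 1964 without single libraries (866 and 825 without replicates 2 and 3 at 100 µM). Those called higher in young leaves, 8379, were 4687 at a mean FPKM of at least 5, 3362 after median-of-ratios rescaling, 2119 with a difference of at least 1 and 4217 to 11044 without single libraries (5570 and 4217 without replicates 1 and 3 at 5 µM, 4884 and 4914 without replicates 2 and 3 at 100 µM). R in old leaves of Glyma.05G204600.Wm82.a2.v1 ran from -1.28 to 0.295 over the libraries left out, that of Glyma.01G127200.Wm82.a2.v1 from -1.20 to 0.17 and that of Glyma.02G054200.Wm82.a2.v1 from -1.74 to 0.89; from group medians the last pair had 0.025 and 0.434. Apart from settings that keep fewer genes or libraries or ask for a larger difference, the cause was not tested. The rule found 131 genes from group medians, 91 of them among the 165. The labels used here do not say whether same-numbered samples share a plant or a block. Correlations of same-numbered deviations from group means ran from -0.47 to 0.26, and 3 libraries a group cannot decide whether samples were paired. With the replicate number as a block, 70 of the 165 genes were called for leaf age. With that replicate block all genes called were 14687 for leaf age, 1298 for lower levels in old leaves and 7117 for higher levels in young leaves. With 3 libraries a group and fewer than 10 fragments in a library for 21 genes, R of the least abundant genes is imprecise.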
